A study of Mus musculus with 26 samples.

Results

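The genes of cholesterol and fatty acid synthesis were followed in cultured mouse neural stem and progenitor cells (NSPCs) that carried or lacked SOX2 and were given a synthetic glucocorticoid. The module is a list of 36 named genes that covers the sterol pathway, its sensing proteins, sterol transport and efflux, fatty acid synthesis and desaturation, and lysolipid uptake. The list was drawn up by gene name, but with earlier results of these data known. Of the 36 genes, 32 were measured among 19505 genes in all, and Acat2, Tm7sf2, Srebf1 and Scd2 were not analysed here.

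The 4 groups were SOX2 KO cultures with dexamethasone (Dex) and with vehicle (7 cultures, numbered 7 to 13), and wild-type (WT) cultures with Dex and with vehicle (6 cultures, numbered 1 to 6). Each culture came from the telencephalon of 1 C57BL/6 mouse at postnatal day 0, was grown with EGF and FGF-1, and after passage 3 received 100 nM Dex or the ethanol vehicle for 4 h, so all groups share the growth factors and the culture medium. Each culture gave 1 Dex and 1 vehicle array, 26 arrays in all. Both sexes were used. How and when Sox2 was deleted is not given in the sources used here, and the cultures are a model of dividing progenitors outside the brain.

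As background, cells build cholesterol from acetyl-CoA through mevalonate, squalene and lanosterol. When sterols run low, SCAP carries the membrane-bound factor SREBP2 (Srebf2) from the endoplasmic reticulum to the Golgi, where its active part is released and turns on the synthesis genes; INSIG proteins hold SCAP back when sterols are plentiful. Fatty acid synthase makes palmitate from malonyl-CoA, and desaturases and elongases shape it and the dietary polyunsaturated acids for membranes. MFSD2A imports lysophosphatidylcholine that carries docosahexaenoic acid (DHA), and in the brain it is best known from the endothelium of the blood-brain barrier.

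No gene of sterol or fatty acid synthesis passed the test for Dex or for loss of SOX2, and the estimated Dex effects of the 31 members other than Mfsd2a lay between -0.42 and 0.34 log2 units in SOX2 KO and between -0.27 and 0.31 in WT (-0.29 and 0.25 without culture 4). Mfsd2a stood apart. It was higher in the Dex array of all 7 SOX2 KO cultures and of 5 of the 6 WT cultures, by 0.99 to 2.72 log2 units in SOX2 KO and by 1.09 to 1.38 log2 units in those 5 WT cultures. The exception was culture 4 (WT), which goes against its Dex labels.

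Sox2 followed the genotype labels on every array, at 3.92 to 6.50 log2 units on SOX2 KO arrays and at 12.17 to 14.39 on WT arrays. Culture 4 did not follow its treatment labels. All 8 genes used to check Dex were lower on its array labelled Dex than on its array labelled vehicle, for example Fkbp5 by -2.03, Per1 by -2.74 and Fam107a by -6.83 log2 units, while all 8 were higher with Dex in each of the other 12 cultures. WT Dex effects and genotype differences of the genes named below are therefore given with and without culture 4. The Dex array of culture 12 (SOX2 KO) had the lowest upper quartile of all arrays, 9.49. The next lowest was 9.66, on the vehicle array of the same culture, and the highest was 10.53, in culture 3. Several members were shifted on the Dex array of culture 12. Clustering of the cultures by residual profile gave 3 array clusters, which no label names. Cluster 1 held cultures 1, 2, 3, 7 and 8, cluster 2 cultures 4, 10 and 12, and cluster 3 cultures 5, 6, 9, 11 and 13. These clusters also differed in upper quartile. No cluster 1 array fell under 10.2, while the other arrays all stayed under 10, the highest being 9.91. Whether that difference shaped the clusters was not tested. Of 9 measured progenitor markers, 8 or 9 lay above the array median on each array; of 6 endothelial, 6 microglial and 6 mesenchymal markers, at most 2, 1 and 1 did. Between 4 and 6 of the 6 astrocyte markers, 4 or 5 of the 6 neuronal markers and 1 to 4 of the 6 measured oligodendrocyte lineage markers (of 8 listed) also lay above the median of their array. In bulk samples, fewer cells of a type and less RNA per cell cannot be told apart.

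The promoters below are those of the gene that passed the Dex test without culture 4, of the 1 member with a sterol element in its window, and of the pair of genes that differed most between cultures. Each is the 250 bases before a transcript start, written 5′ to 3′ on the strand of the gene, from RefSeq on GRCm38.p6. They lie at chr4:122961189-122961438 on the minus strand (Mfsd2a), chr13:119690101-119690350 on the plus strand (Hmgcs1), chr1:169969206-169969455 on the minus strand (Hsd17b7) and chr4:53159896-53160145 on the minus strand (Abca1). Capitals mark matches on either strand. The sterol regulatory element was searched as TCACNCCAC. The box bound by NF-Y was searched as CCAAT, which in capitals can also appear as its reverse complement. An E-box was searched as CACGTG, and the glucocorticoid receptor core was searched as ACANNNTGT.
Mfsd2a: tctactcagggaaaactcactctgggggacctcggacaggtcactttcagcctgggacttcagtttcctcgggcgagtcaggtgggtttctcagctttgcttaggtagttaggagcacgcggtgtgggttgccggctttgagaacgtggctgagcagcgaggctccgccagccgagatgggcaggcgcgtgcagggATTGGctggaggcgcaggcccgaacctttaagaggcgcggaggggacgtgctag
Hmgcs1: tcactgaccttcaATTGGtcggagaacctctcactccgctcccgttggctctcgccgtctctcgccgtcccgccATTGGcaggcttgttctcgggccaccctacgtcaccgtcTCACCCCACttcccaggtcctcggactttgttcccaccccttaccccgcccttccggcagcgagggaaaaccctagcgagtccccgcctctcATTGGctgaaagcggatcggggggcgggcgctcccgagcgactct
Hsd17b7: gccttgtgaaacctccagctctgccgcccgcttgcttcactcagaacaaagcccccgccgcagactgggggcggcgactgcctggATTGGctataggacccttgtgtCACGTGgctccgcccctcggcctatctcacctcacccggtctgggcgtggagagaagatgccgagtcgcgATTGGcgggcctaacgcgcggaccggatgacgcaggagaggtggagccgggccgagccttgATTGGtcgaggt
Abca1: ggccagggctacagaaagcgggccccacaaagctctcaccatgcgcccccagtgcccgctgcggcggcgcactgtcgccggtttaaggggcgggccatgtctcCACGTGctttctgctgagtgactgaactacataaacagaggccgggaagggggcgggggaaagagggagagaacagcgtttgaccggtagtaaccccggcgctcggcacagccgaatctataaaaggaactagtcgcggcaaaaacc

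Such windows were found for 25 of the 32 members. The sterol element occurred in 1 of the 25, that of Hmgcs1 (positions -137 to -129 from the start). It occurred in 1.22% of all 27025 genes with such windows. A window without a match lacks only this exact string within these 250 bases. A CCAAT box occurred in 19 of the 25 and in 37.5% of all these genes, and an E-box in 6 of the 25 and in 6.86%. In Mfsd2a the only match was a CCAAT box at positions -54 to -50. The glucocorticoid receptor core was found in 0 of the 25 and in 6.76% of all these genes, which says only that these letters are not within these 250 bases. None of the 4 patterns overlapped another in the sequences shown.

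The first question is whether Dex changed the module. Dex was compared with vehicle within cultures, in a limma model with the culture as a block. In SOX2 KO cultures 0 of 32 members passed an adjusted p of 0.05, where 0.0718% of all genes did (14 genes), and 3 members had an unadjusted p under 0.05 (10.2% of all genes). In WT cultures 0 of 32 members passed, where 0% of all genes did, and 1 member had an unadjusted p under 0.05 (3.87% of all genes). Without culture 4, Mfsd2a passed in both genotypes and no other member did; 0.251% of all genes passed in SOX2 KO and 0.169% in WT, and the counts at an unadjusted p under 0.05 were 3 members (9.74% of all genes) and 1 member (4.93%). The median Dex minus vehicle difference of the 32 members was 0.01 log2 units in SOX2 KO (all genes -0.02) and 0.04 in WT (all genes 0.00), and 0.05 in WT without culture 4.

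The intervals show how large a change the data leave room for. In SOX2 KO, 31 of the 32 members had a 95% interval of the Dex effect that lay within 1 log2 unit of 0, a change of up to 2-fold either way (96.7% of all genes), and 22 within 0.5 log2 units, or 1.41-fold (49.2% of all genes). In WT the counts were 31 (98.5% of all genes) and 24 (48.6%), and without culture 4 they were 31 (96.4%) and 20 (34.6%). Mfsd2a was the 1 member outside 1 log2 unit in both genotypes. A p that misses the threshold does not show that a gene was the same with and without Dex.

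**Figure D1:**
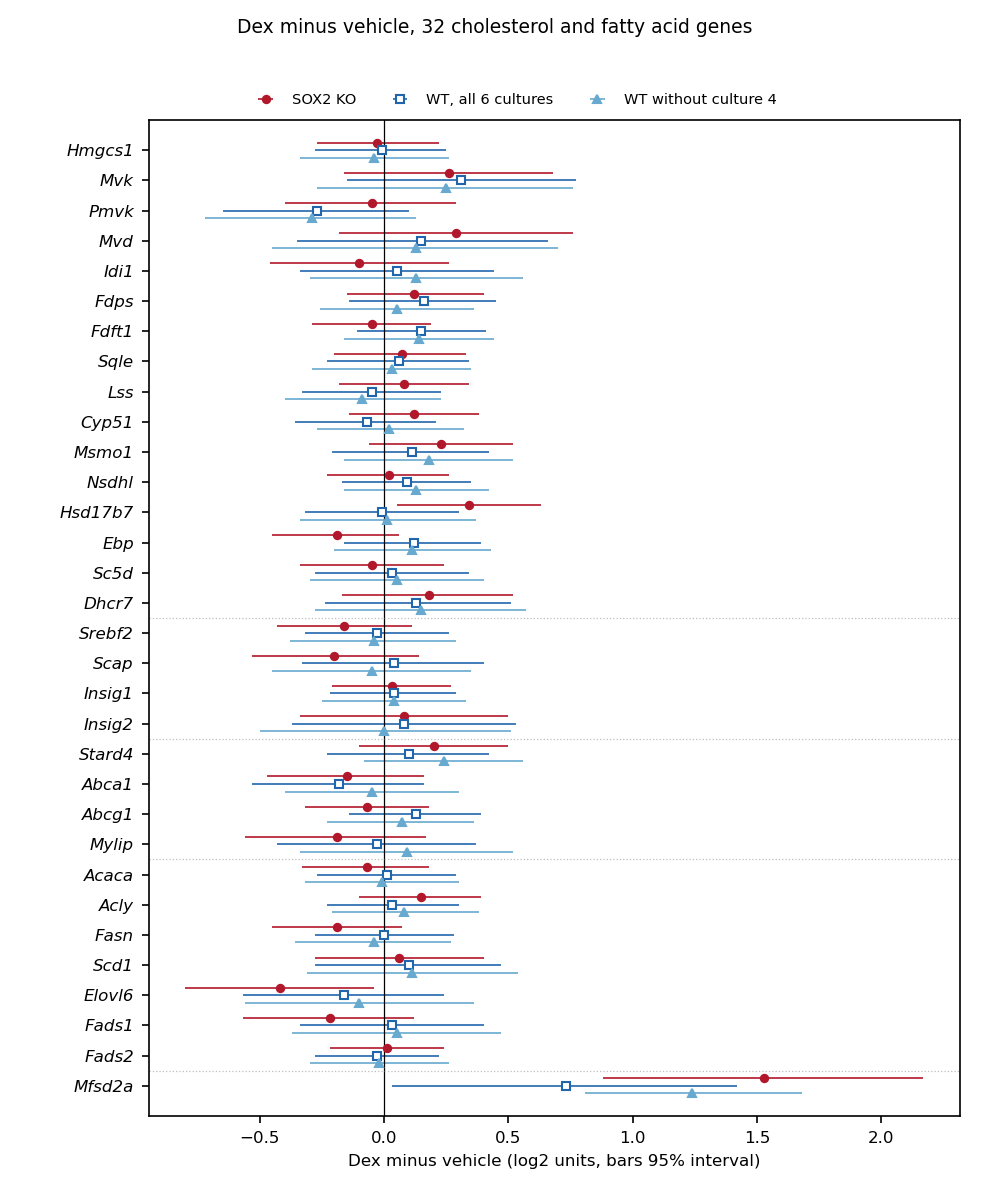
Dex minus vehicle in log2 units (horizontal axis) for the 32 members by role, with points for the limma estimate and bars for its 95% interval, in SOX2 KO (7 cultures), WT (6 cultures) and WT without culture 4 (5 cultures). Mfsd2a, in the bottom line, lies at 1.53 in SOX2 KO, 0.73 in WT and 1.24 in WT without culture 4, while the other 31 estimates lie between -0.42 and 0.34 in SOX2 KO.

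Mfsd2a lies at chr4:122946850-122961194 (GRCm38.p6). Its levels on SOX2 KO arrays had a lowest value of 12.56, a median of 12.94 and a highest value of 14.09 log2 units with Dex, against 10.65, 11.45 and 12.90 with vehicle. On WT arrays the values were 11.64, 13.30 and 14.03 with Dex, against 11.39, 12.25 and 13.50 with vehicle. The lowest WT Dex array and the highest WT vehicle array both belonged to culture 4. Without it the WT arrays ran from 12.74 to 14.03 with Dex and from 11.39 to 12.94 with vehicle. The Dex and vehicle groups overlapped in both genotypes, yet within each culture other than culture 4 the Dex array was the higher one.

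The Dex minus vehicle differences of Mfsd2a in SOX2 KO cultures 7 to 13 were 1.19, 1.83, 0.99, 1.68, 1.11, 2.72 and 1.17 log2 units. In WT cultures 1, 2, 3, 5 and 6 they were 1.20, 1.20, 1.09, 1.38 and 1.35, and in culture 4 the difference was -1.86. Mfsd2a was the 1 member whose differences had 1 sign in all 7 SOX2 KO cultures (2.5% of all genes), and also in the 12 cultures other than culture 4 (0.687% of all genes). In all 6 WT cultures 0 members had 1 sign (4.17% of all genes). Culture 12, whose Dex array stands apart, gave the largest difference.

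With all 26 arrays in the limma fit, the Mfsd2a change in SOX2 KO was 1.53 ± 0.31 log2 units (SE, n = 7 cultures), or 2.88-fold, with an adjusted p of 0.101. Without culture 4 the same estimate had an SE of 0.17 and a limma adjusted p of 0.000176, and in a fit of the SOX2 KO arrays alone the adjusted p was 0.00848. Leaving out cultures 4 and 12 together gave 1.33 (limma adjusted p = 2.55e-05, where 0.338% of all genes passed in SOX2 KO and 0.297% in WT). In WT the change was 0.73 ± 0.33 (SE, n = 6 cultures, limma adjusted p = 0.998). Without culture 4 Mfsd2a rose in WT by 1.24 ± 0.21 (SE, n = 5 cultures), or 2.37-fold, with a limma adjusted p of 0.0124. With no block for the culture and without culture 4, the SOX2 KO estimate had a limma adjusted p of 0.0228 and the WT estimate one of 1. Whether Mfsd2a passed thus turned on culture 4 in SOX2 KO, and on culture 4 and the block together in WT.

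Whether the Mfsd2a response differed between genotypes was tested on the difference itself. The mean Dex minus vehicle difference was 1.53 ± 0.61 in SOX2 KO and 0.73 ± 1.27 in WT (SD, n = 7 and 6 cultures), a gap of 0.80 with p = 0.133 in an exact two-sided permutation test over 1716 splits. With culture 4 left out, WT averaged 1.24 ± 0.12 (SD, n = 5 cultures), which left a gap of 0.28 and p = 0.39 over 792 splits of the same exact permutation test. The limma 95% interval of the gap ran from -0.15 to 1.75 with all cultures and from -0.29 to 0.85 without culture 4, so a smaller or a larger response in SOX2 KO remains possible within those bounds. Within array clusters, the mean response was 1.51 in 2 SOX2 KO cultures and 1.16 in 3 WT cultures in cluster 1, and 1.09 in 3 SOX2 KO cultures and 1.37 in 2 WT cultures in cluster 3. In cluster 2, 2 SOX2 KO cultures gave 2.20 and culture 4, its one WT culture, gave -1.86.

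**Figure D2:**
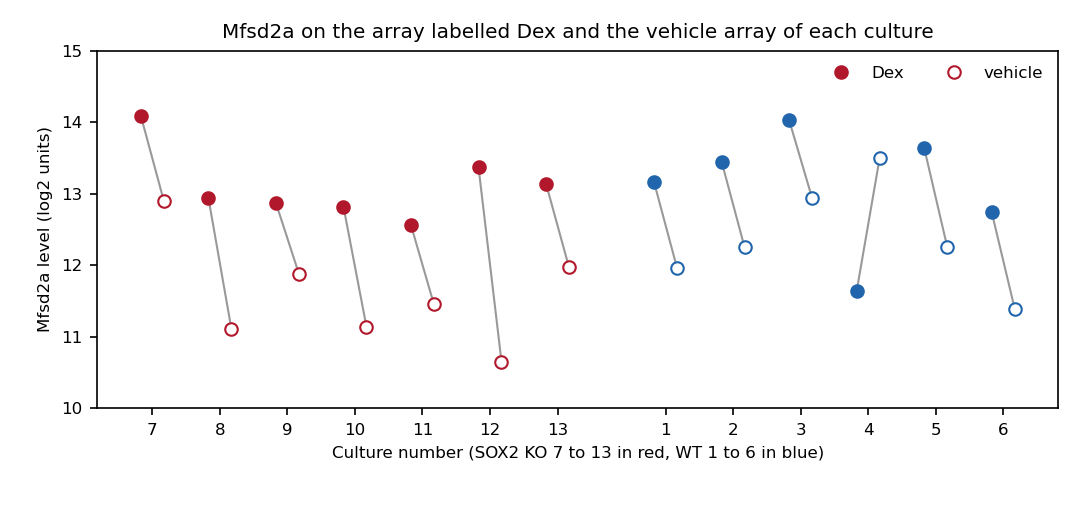
Mfsd2a level in log2 units (vertical axis) on the Dex array (filled) and the vehicle array (open) of each culture, with SOX2 KO cultures in red and WT cultures in blue and a line joining the 2 arrays of a culture. The Dex array is the higher one in all cultures except culture 4, where the array labelled Dex is at 11.64 and the array labelled vehicle at 13.50.

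Since Mfsd2a is known as an endothelial gene, the endothelial markers were set beside it. The mean of the 6 markers (Pecam1, Cdh5, Cldn5, Kdr, Tek and Flt1) was 4.74 to 5.00 log2 units on SOX2 KO Dex arrays and 4.60 to 4.93 on SOX2 KO vehicle arrays. It was 4.58 to 5.27 on WT Dex arrays and 4.61 to 5.13 on WT vehicle arrays. At most 2 of the 6 lay above the median of their own array, and none passed the limma test in any of the 5 comparisons, with or without culture 4.

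The enzymes of sterol synthesis came to 16 measured genes. Dex left 10 higher and 6 lower in SOX2 KO, with a median difference of 0.07 log2 units and a range of -0.19 to 0.34. Without culture 12 the SOX2 KO counts were 13 higher and 3 lower, with a median of 0.05 and a range of -0.13 to 0.21. In WT, 11 were higher and 5 lower, with a median of 0.08 and a range of -0.27 to 0.31. Without culture 4 the WT counts were 13 and 3, with a median of 0.08 and a range of -0.29 to 0.25, and none of the 16 passed in either genotype. These counts of signs are not set against the share of all genes that rose, so they do not show a joint rise of the enzymes. Hmgcs1, the cytosolic HMG-CoA synthase that acts ahead of mevalonate, ran from 17.86 to 18.77 (median 18.14) on SOX2 KO Dex arrays and from 17.64 to 19.00 (median 18.13) on SOX2 KO vehicle arrays. On WT arrays Hmgcs1 ran from 17.52 to 18.46 (median 17.82) with Dex and from 17.48 to 18.35 (median 17.88) with vehicle. All 4 groups overlapped, and the Dex effect was -0.03 ± 0.12 in SOX2 KO and -0.01 ± 0.12 in WT (SE), with a limma adjusted p of 0.947 and 0.998. Without culture 4 the WT effect was -0.04 ± 0.14 (SE).

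Sqle, the squalene epoxidase, also overlapped between all groups. It ran from 13.27 to 14.25 (median 13.80) on SOX2 KO Dex arrays and from 12.92 to 14.20 (median 13.84) on SOX2 KO vehicle arrays. On WT arrays it ran from 13.02 to 14.46 (median 13.65) with Dex and from 12.80 to 14.37 (median 13.64) with vehicle. Its Dex effect had a 95% interval of -0.20 to 0.33 in SOX2 KO and -0.23 to 0.34 in WT, where the estimate was 0.06. Without culture 4 the WT estimate was 0.03, with an interval of -0.29 to 0.35.

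Hsd17b7, a ketone reductase of late sterol synthesis, had the smallest p of the sterol enzymes for Dex in SOX2 KO. Its level ran from 12.15 to 13.33 (median 12.82) on SOX2 KO Dex arrays and from 11.61 to 13.51 (median 12.41) on SOX2 KO vehicle arrays. On WT arrays it ran from 10.77 to 13.58 (median 12.38) with Dex and from 10.92 to 13.74 (median 12.22) with vehicle, so all 4 groups overlapped. It was higher with Dex in 6 of 7 SOX2 KO cultures, by 0.34 ± 0.14 (SE, limma adjusted p = 0.434), and differed by -0.01 ± 0.15 in WT (limma adjusted p = 0.998; 0.01 without culture 4). The largest difference, 1.15, was that of culture 12, without which the SOX2 KO effect was 0.21 (limma adjusted p = 0.662). Msmo1, a methyl oxidase of the same branch, was higher in 5 of 7 SOX2 KO cultures by 0.23 ± 0.14 (SE, limma adjusted p = 0.575). Without culture 12 the Msmo1 effect was 0.14 (limma adjusted p = 0.848). Its values ran from 12.58 to 13.82 (median 13.16) with Dex and from 12.37 to 13.66 (median 12.99) with vehicle in SOX2 KO. In WT they ran from 12.30 to 13.58 (median 12.68) with Dex and from 11.94 to 13.24 (median 12.69) with vehicle, a Dex effect of 0.11 (0.18 without culture 4).

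The kinases and the squalene synthase gave the smallest p among sterol enzymes in WT, all with a limma adjusted p of 0.998. Mvk, mevalonate kinase, ran from 7.19 to 8.53 (median 7.91) on WT Dex arrays and from 6.98 to 8.26 (median 7.45) on WT vehicle arrays, higher in 5 of 6 cultures by 0.31 ± 0.22 (SE). Pmvk, the next kinase, ran from 7.91 to 9.63 (median 8.71) with Dex and from 8.58 to 10.16 (median 8.98) with vehicle, and was lower in 4 of 6 WT cultures, with a mean difference of -0.27 ± 0.18 (SE). Fdft1, squalene synthase, ran from 13.64 to 15.33 (median 14.74) with Dex and from 13.44 to 15.15 (median 14.59) with vehicle, higher in 5 of 6 cultures by 0.15 ± 0.12 (SE). The groups overlapped for all 3 genes, and without culture 4 the WT effects were 0.25 for Mvk, -0.29 for Pmvk and 0.14 for Fdft1. The other sterol enzymes, Mvd, Idi1, Fdps, Lss, Cyp51, Nsdhl, Ebp, Sc5d and Dhcr7, had Dex effects of -0.19 to 0.29 in SOX2 KO and -0.07 to 0.16 in WT (-0.09 to 0.15 without culture 4). The SOX2 KO range was -0.11 to 0.10 without culture 12, in which Mvd differed by 1.90, Dhcr7 by 1.37 and Idi1 by -1.31. The effects of these 3 genes were 0.29, 0.18 and -0.10 with culture 12, and 0.02, -0.02 and 0.10 without it.

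Among the 4 measured sensing genes, Srebf2 ran from 14.86 to 15.92 (median 15.87) on SOX2 KO Dex arrays and from 15.57 to 16.03 (median 15.81) on SOX2 KO vehicle arrays. On WT arrays it ran from 15.21 to 16.08 (median 15.75) with Dex and from 15.16 to 16.17 (median 15.69) with vehicle. Its Dex effect was -0.16 ± 0.13 in SOX2 KO and -0.03 ± 0.14 in WT (SE; -0.04 without culture 4), and the lowest array was the Dex array of culture 12. Insig1, a target of SREBP2 as well as a brake on it, ran from 14.21 to 15.05 (median 14.73) on SOX2 KO Dex arrays and from 14.27 to 15.06 (median 14.51) on SOX2 KO vehicle arrays. In WT Insig1 ran from 13.85 to 15.28 (median 14.36) with Dex and from 13.76 to 15.21 (median 14.44) with vehicle. Its Dex effects, 0.03 ± 0.11 and 0.04 ± 0.12 (SE), had 95% intervals of -0.21 to 0.27 in SOX2 KO and -0.22 to 0.29 in WT, and the WT effect was again 0.04 without culture 4, with an interval of -0.25 to 0.33. Scap and Insig2 had Dex effects of -0.20 and 0.08 in SOX2 KO and of 0.04 and 0.08 in WT (-0.05 and 0.00 without culture 4).

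The 4 genes of sterol transport, efflux and receptor turnover had Dex effects of -0.19 to 0.20 in SOX2 KO and -0.18 to 0.13 in WT (-0.05 to 0.24 without culture 4). Stard4, a carrier of cholesterol between membranes, differed by 0.20 ± 0.14 in SOX2 KO and 0.10 ± 0.15 in WT (SE; 0.24 without culture 4). Abca1, the exporter of cholesterol to apolipoproteins, differed by -0.15 ± 0.15 in SOX2 KO and -0.18 ± 0.16 in WT (SE), and by -0.05 in WT without culture 4. Mylip, a ubiquitin ligase that lowers lipoprotein receptors, Abcg1, another exporter, and the sensing gene Insig2 had mean levels of 5.19 to 6.40 log2 units in the 4 groups. Those levels lie under the array medians of 6.58 to 7.01, and whether they exceed background was not tested, since no background values were used here.

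The 7 measured genes of fatty acid synthesis had a median Dex effect of -0.07 in SOX2 KO (-0.02 without culture 12) and 0.01 in WT (-0.01 without culture 4). Fasn, fatty acid synthase, ran from 14.41 to 15.08 (median 14.64) on SOX2 KO Dex arrays and from 14.60 to 15.31 (median 14.83) on SOX2 KO vehicle arrays. On WT arrays Fasn ran from 14.32 to 15.10 (median 14.91) with Dex and from 14.56 to 15.06 (median 14.92) with vehicle. Its Dex effect was -0.19 ± 0.12 in SOX2 KO and 0.00 ± 0.13 in WT (SE; -0.04 without culture 4), and it was higher with Dex in 1 of 7 SOX2 KO cultures and 3 of 6 WT cultures.

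Elovl6, the elongase that makes stearate from palmitate, had the smallest p of the group for Dex in SOX2 KO. It ran from 12.78 to 14.53 (median 14.33) on SOX2 KO Dex arrays and from 13.99 to 14.78 (median 14.49) on SOX2 KO vehicle arrays, lower with Dex in 6 of 7 cultures by a mean difference of -0.42 ± 0.18 (SE, limma adjusted p = 0.46). Culture 12 gave -1.71, and without it the effect was -0.20 ± 0.13 (SE, limma adjusted p = 0.74). In WT Elovl6 differed by -0.16 ± 0.19 (SE; -0.10 without culture 4), and was higher with Dex in 1 of 6 cultures. Scd1, the stearoyl-CoA desaturase, was higher with Dex in 6 of 7 SOX2 KO cultures by 0.09 to 0.56 and differed by -1.17 in culture 12. Its SOX2 KO effect was 0.06 with all cultures and 0.27 ± 0.11 without culture 12 (SE, limma adjusted p = 0.545). In WT Scd1 differed by 0.10 (0.11 without culture 4). Acaca and Acly, which make malonyl-CoA and acetyl-CoA, differed by -0.07 and 0.15 in SOX2 KO and by 0.01 and 0.03 in WT (-0.01 and 0.08 without culture 4). Fads1 and Fads2, desaturases of polyunsaturated fatty acids, differed by -0.22 and 0.01 in SOX2 KO, and by 0.03 and -0.03 in WT (0.05 and -0.02 without culture 4). The Fads1 difference in culture 12 was -1.42, and without that culture the SOX2 KO effect of Fads1 was -0.02.

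A difference between the genotypes in the response to Dex was not detected for any member. In the limma test of the difference of Dex effects, 0 of 32 members passed, where 0% of all genes did, and 0 had an unadjusted p under 0.05 (3.53% of all genes; 0 members and 3.3% without culture 4). The median difference was -0.02 log2 units (all genes -0.03), and -0.03 without culture 4. The smallest p values after Mfsd2a belonged to Hsd17b7 at 0.35 ± 0.20, Ebp, a sterol isomerase, at -0.31 ± 0.18 and Fdft1 at -0.20 ± 0.17 (SE), each with a limma adjusted p of 0.999. Without culture 4 these were 0.33, -0.31 and -0.19. Ebp had medians of 9.90 on SOX2 KO Dex arrays and 10.16 on SOX2 KO vehicle arrays, and of 10.06 on WT Dex arrays and 10.07 on WT vehicle arrays. The 95% interval lay within 1 log2 unit of 0 for 31 members (86.3% of all genes) and within 0.5 for 9 (13.8%). Without culture 4 the counts were 32 (82.4% of all genes) and 10 (9.52%).

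The next question is whether loss of SOX2 changed the module. In Dex 0 of 32 members passed the limma test of SOX2 KO against WT, where 0.564% of all genes did, and 1 had an unadjusted p under 0.05 (7.56% of all genes). In vehicle 0 of 32 passed, where 0.559% of all genes did, and 1 had an unadjusted p under 0.05 (5.17%). Without culture 4 the counts of members past the threshold were again 0, where 0.554% of all genes passed in Dex and 0.523% in vehicle, and 0 had an unadjusted p under 0.05 (8.38% and 6.27% of all genes). The median difference over the members was 0.00 in Dex (all genes -0.06) and 0.05 in vehicle (all genes -0.03), and -0.09 and -0.06 without culture 4. In no member did SOX2 KO and WT arrays fail to overlap, in Dex (0.482% of all genes) or in vehicle (0.518%), nor without culture 4 (0.81% and 0.805%).

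Genotype was measured less sharply than Dex, since it differs between cultures. The 95% interval lay within 1 log2 unit of 0 for 29 of 32 members in Dex (83.5% of all genes), the exceptions being Hsd17b7, Scap and Abca1. In vehicle it did so for 29 members (87.7%), the exceptions being Hsd17b7, Abca1 and Mfsd2a. Within 0.5 log2 units lay 6 members in Dex (11.5%) and 8 in vehicle (13.3%). The exceptions depended on culture 4. Without it, 29 members lay within 1 log2 unit in Dex (78.8% of all genes), all but Mvd, Idi1 and Abca1. In vehicle 30 did (82.6%), all but Abca1 and Mfsd2a. Within 0.5 log2 units lay 6 in Dex (8.35%) and 7 in vehicle (9.05%).

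**Figure D3:**
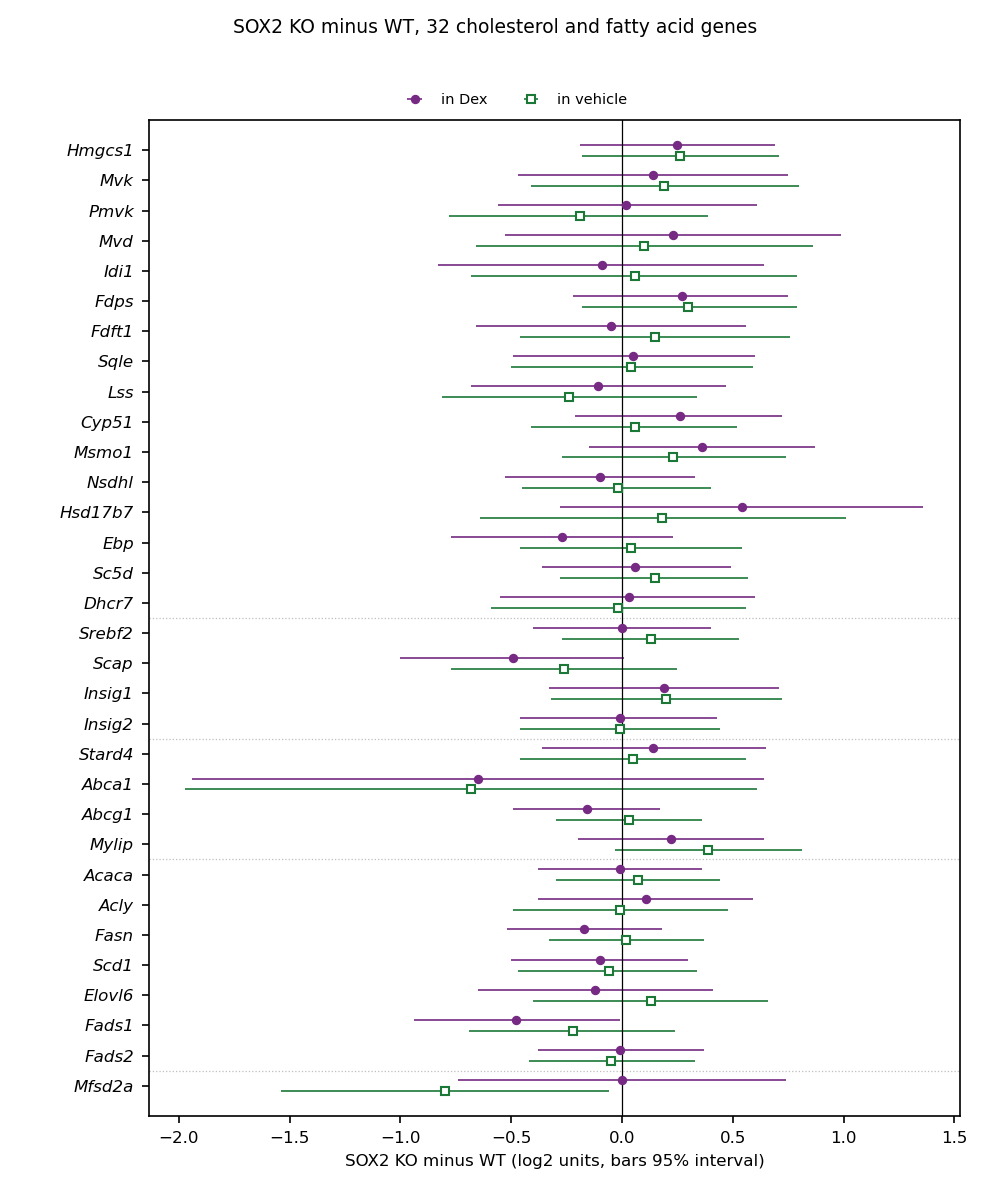
SOX2 KO minus WT in log2 units (horizontal axis) for the 32 members by role, with points for the limma estimate and bars for its 95% interval, in Dex and in vehicle (7 SOX2 KO and 6 WT arrays each). Most bars cross 0; those of Mfsd2a in vehicle, at -0.80, and of Fads1 in Dex, at -0.48, do not, and neither passed the adjusted threshold.

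Mfsd2a was lower in SOX2 KO than in WT on vehicle arrays by a mean difference of -0.80 ± 0.36 log2 units (SE, limma adjusted p = 0.849), with SOX2 KO values of 10.65 to 12.90 and WT values of 11.39 to 13.50. Without culture 4 the difference was -0.57 ± 0.32 (limma adjusted p = 0.874), and without cultures 4 and 12 it was -0.42. In Dex the genotypes differed by 0.00 ± 0.36, and by -0.29 ± 0.32 without culture 4. Within array cluster 1 the vehicle difference was -0.38, within cluster 3 it was -0.06, and within cluster 2, whose WT culture is culture 4, it was -2.61.

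Of the sterol enzymes, Fdps and Hmgcs1 gave the smallest p in vehicle. Fdps, farnesyl diphosphate synthase, ran from 12.57 to 13.66 (median 12.98) on SOX2 KO vehicle arrays and from 12.04 to 13.50 (median 12.54) on WT vehicle arrays, a difference of 0.30 ± 0.24 (SE). Hmgcs1 differed by 0.26 ± 0.22, and both had a limma adjusted p of 1 (0.23 for Fdps and 0.35 for Hmgcs1 without culture 4). Hsd17b7 differed by 0.54 ± 0.40 in Dex and 0.18 ± 0.40 in vehicle (SE). Its lowest arrays were both of culture 4, at 10.77 and 10.92, and without culture 4 the differences were 0.23 in Dex and -0.10 in vehicle. Msmo1 differed by 0.36 ± 0.25 in Dex (SE, limma adjusted p = 0.848), by 0.30 without culture 4 and by 0.24 without culture 12.

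Outside the enzymes, Mylip ran from 6.06 to 6.86 (median 6.40) on SOX2 KO vehicle arrays and from 5.64 to 6.41 (median 6.07) on WT vehicle arrays, a difference of 0.39 ± 0.21 (SE, limma adjusted p = 1). It was 0.40 without culture 4, and 0.04, 0.41 and 0.66 within array clusters 1, 2 and 3. Scap ran from 10.48 to 11.83 (median 10.89) on SOX2 KO Dex arrays and from 10.90 to 11.89 (median 11.61) on WT Dex arrays, a difference of -0.49 ± 0.25 (SE, limma adjusted p = 0.688). The Scap difference was -0.42 without culture 4, and -0.16, -0.92 and -0.35 within clusters 1, 2 and 3. Fads1, the delta-5 desaturase of polyunsaturated fatty acids, ran from 12.97 to 14.67 (median 14.26) on SOX2 KO Dex arrays and from 14.00 to 14.86 (median 14.68) on WT Dex arrays, a difference of -0.48 ± 0.23 (SE, limma adjusted p = 0.64). The lowest was the Dex array of culture 12, and without that array the difference was -0.29. Without culture 4 it was again -0.48.

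The spread between cultures was set beside the spread of the Dex minus vehicle differences. The SD of the 13 culture means was larger than the SD of the Dex minus vehicle differences within genotype for 19 of 32 members, against 37.8% of all genes. Each culture mean averages 2 arrays and each difference is taken between 2 arrays, so noise alone makes the differences the more variable of the pair. The median over members was 0.405 for the culture means and 0.323 for the differences (all genes 0.382 and 0.447). The members thus lay close to all genes in the spread of culture means, and below them in the spread of the differences. The SD of the 13 culture means also holds any genotype difference, which the SD within genotype does not.

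Abca1 was the extreme case. The 2 arrays of a culture differed by no more than in culture 4, where Dex minus vehicle was -0.84 log2 units, but the culture means ranged from 5.88 in culture 6 to 10.08 in culture 2, with an SD of 1.27 against 0.38 for the Dex differences, and 0.195% of all genes had a larger SD of culture means. On SOX2 KO arrays Abca1 ran from 6.96 to 9.81 (median 7.85) with Dex and from 7.19 to 10.12 (median 8.23) with vehicle. On WT arrays it ran from 5.63 to 10.13 (median 9.41) with Dex and from 6.13 to 10.18 (median 9.44) with vehicle. The SOX2 KO minus WT difference was -0.65 ± 0.63 in Dex and -0.68 ± 0.63 in vehicle (SE, limma adjusted p = 0.90 and 1), and -0.72 and -0.62 without culture 4. In vehicle the difference was -0.46 within array cluster 1, -1.39 within cluster 2 and 0.35 within cluster 3.

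**Figure D4:**
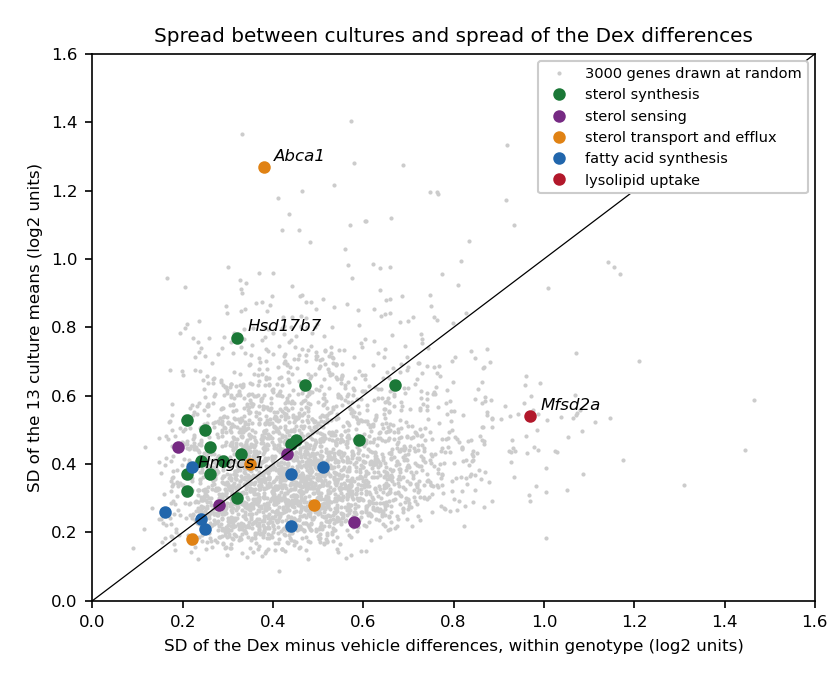
SD of the 13 culture means (vertical axis) against the SD of the Dex minus vehicle differences within genotype (horizontal axis), both in log2 units, for the 32 members coloured by role and 3000 genes drawn at random in grey; the line marks equal SDs. Abca1 (1.27 against 0.38) and Hsd17b7 (0.77 against 0.32) lie far above the line and Mfsd2a (0.54 against 0.97) below it.

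Cultures differed in how many members they were highest or lowest for. Culture 6 had the highest mean for 10 of the 32 members and 5 of the 16 sterol enzymes, where it was highest for 5.56% of all genes. Culture 3 was highest for 9 members, 5 of them sterol enzymes, but also for 23.5% of all genes. The count of culture 3 is too near that share to set the members apart. Culture 4 had the lowest mean for 13 members, 8 of them sterol enzymes, and culture 5 for 5 members, 4 of them sterol enzymes; over all genes the shares were 11.8% and 9.83%. These 4 are WT cultures, and of the SOX2 KO cultures, culture 12 was lowest for 5 members (20.2% of all genes) and culture 10 highest for 5 (6.61% of all genes). The median level of the 16 enzymes relative to their mean over cultures was 0.53 log2 units in culture 6 and 0.50 in culture 3, against -0.52 in culture 4 and -0.48 in culture 5, while the median over all genes was -0.09, 0.25, -0.07 and -0.09 in these cultures. The SOX2 KO cultures lay between -0.17 and 0.30 on the same measure. The part of array quality or of culture state in this was not tested.

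By array cluster, 3 of 32 members lay wholly beyond the other arrays in cluster 2, where 7.03% of all genes did, a share too near that of all genes to set the members apart. The clusters were made from the profiles of these same arrays, so it is built in that some genes separate them. On all 6 arrays of cluster 2 Hmgcs1 and Fads2, the delta-6 desaturase, lay above every other array. Idi1, an isomerase of the mevalonate branch, lay below every other array. For Hmgcs1 the lowest array of cluster 2 was at 18.28 log2 units and the highest other array at 18.26. No member lay wholly beyond the other arrays in clusters 1 and 3 (2.34% and 0.82% of all genes). With the array cluster as a covariate, 0 members passed in either genotype comparison, and the median SOX2 KO minus WT difference was 0.07 in Dex and 0.12 in vehicle.

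**Figure D5:**
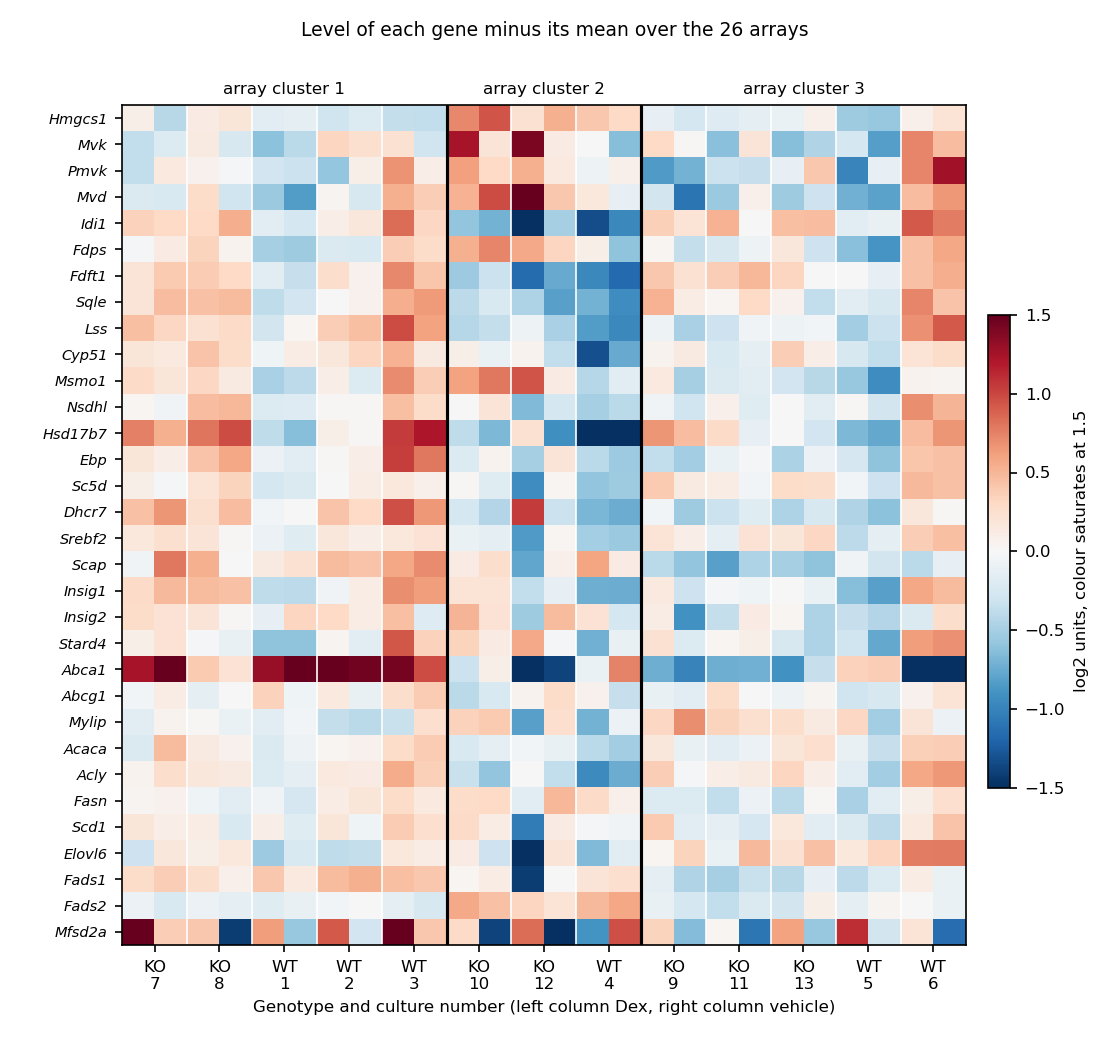
Level of each of the 32 members (rows, by role) minus its own mean over the 26 arrays, in log2 units (colour, saturating at 1.5), with the arrays in columns by array cluster and culture, Dex left and vehicle right. The 2 columns of a culture resemble each other for most genes, as for Abca1, whereas Mfsd2a changes between the columns of a culture, and the Dex array of culture 12 stands out.

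Beyond the module, 18 of 23 listed further sterol genes and 25 of 27 further fatty acid genes were measured. With all cultures none of these passed for Dex. Without culture 4, 0 of the 18 and 1 of the 25 passed in each genotype, where 0.251% of all genes passed in SOX2 KO and 0.169% in WT. That gene was Thrsp, a nuclear regulator of lipogenesis, which rose by 1.37 ± 0.19 in SOX2 KO (SE, n = 7, limma adjusted p = 0.00111) and by 1.54 ± 0.22 in WT (SE, n = 5, limma adjusted p = 0.00368). It was higher with Dex in all 7 SOX2 KO cultures, by 0.41 to 1.96, and in the 5 WT cultures, by 0.50 to 1.95, and differed by -1.65 in culture 4.

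In the comparison of genotypes, 1 of the 25 further fatty acid genes and 0 of the 18 sterol genes passed in Dex, where 0.564% of all genes did. In vehicle 0 of either list passed, where 0.559% of all genes did. Acsl6, a long-chain acyl-CoA synthetase of brain that acts on DHA, ran from 5.11 to 7.62 (median 7.23) on SOX2 KO Dex arrays and from 7.77 to 8.87 (median 8.18) on WT Dex arrays. The groups did not overlap there (0.482% of all genes), and Acsl6 was lower in SOX2 KO, with a difference of -1.31 ± 0.32 (SE, limma adjusted p = 0.0488; -1.41 and 0.0453 without culture 4). In vehicle it ran from 6.47 to 7.89 in SOX2 KO and from 7.81 to 8.92 in WT, a difference of -1.11 ± 0.32 (SE, limma adjusted p = 0.144; -1.21 and 0.135 without culture 4). Culture 12 gave the lowest SOX2 KO Dex value, and without it Acsl6 passed in both, at -1.0 ± 0.23 in Dex and -0.96 ± 0.23 in vehicle (SE, limma adjusted p = 0.0416 and 0.0458, where 0.502% and 0.666% of all genes passed). With the array cluster as a covariate, Acsl6 passed in Dex and in vehicle (limma adjusted p = 0.00545 and 0.0305). So did 1 of the 18 sterol genes, the lipoprotein receptor Lrp1, at 0.88 and 0.92 (limma adjusted p = 0.0444 and 0.0349). In that fit 2.04% and 1.93% of all genes passed. These genotype fits had no block, so they count the 2 arrays of a culture as independent, though the consensus correlation within cultures was 0.489. Calls just under 0.05 carry that limit.

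Of the 6 astrocyte markers, 2 passed, both lower in SOX2 KO, where 0.564% of all genes passed in Dex and 0.559% in vehicle. The other 4 did not pass, which does not show that they were unchanged. Aldoc differed by -1.40 ± 0.22 in Dex and -1.71 ± 0.22 in vehicle (SE, limma adjusted p = 0.000803 and 3.57e-05; -1.37 and -1.53 without culture 4). Slc1a2, a glutamate transporter, differed by -2.08 ± 0.35 in Dex and -2.03 ± 0.35 in vehicle (SE, limma adjusted p = 0.00153 and 0.00204; -2.06 and -1.91 without culture 4). The mean of the 6 markers ran from 9.31 to 11.41 on SOX2 KO Dex arrays and from 9.68 to 11.99 on WT Dex arrays. On vehicle arrays it ran from 9.57 to 11.43 in SOX2 KO and from 9.71 to 11.71 in WT, so the groups overlapped. On vehicle arrays 5 to 6 of the 6 markers lay above the array median in SOX2 KO and 4 to 5 in WT. On Dex arrays 5 did in SOX2 KO and 4 to 6 in WT. The part of these markers in the Acsl6 difference was not tested.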

How the data were processed

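The authors deposited 1 table of processed log2 expression values for 26 one-colour arrays of biotin-labelled cRNA, per the labels' protocols. The base of the logarithm was taken from the values (2.22 to 19.81), and the authors' normalization is not given in the sources used here. Array number limits the precision. Of 22206 transcript clusters, 19572 carry 1 gene symbol in the platform annotation. The cluster of highest mean was kept where a gene had several (55 genes), which left 19505 genes, with all 19572 clusters matched to RefSeq by gene identifier. The most alike arrays correlated at 0.995, so none were identical.

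Dex effects were fitted with limma 3.58.1 in R 4.3.3 on all 26 arrays with the culture as a block, and genotype effects with 1 mean for each group and no block, with Benjamini-Hochberg adjustment over all genes at 0.05. The labels keep the cultures of each animal separate and give each number 1 Dex and 1 vehicle array. In a check, residual profiles of the arrays of 1 culture correlated at 0.312 to 0.731, and 22 of 26 arrays matched their own culture best. Replicates are cultures of separate animals. The 3 array clusters come from average-linkage clustering of these profiles, averaged by culture.

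All 32 measured members are accounted for. Values by group are given for members past the threshold, for the 4 of smallest p in each comparison, and for Srebf2, Insig1, Hmgcs1, Sqle, Fasn, Abca1 and Mfsd2a. Members, lists and tests were chosen with earlier results of these data known. The alternatives tried were a quantile and a median scaling of the arrays, leaving out genes of low mean, a trended and robust prior, array weights, averaged transcript clusters, leaving out each culture, other blocks, only the arrays compared, and covariates for array cluster and for Eif2s3y. The fits were tested on simulated data. Promoter windows came from RefSeq (GRCm38.p6). Figures were drawn with matplotlib.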

Additional observations from a re-analysis of the deposited data

Results flagged for a closer look

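In each genotype the Dex minus vehicle differences of every member were searched for a culture far from the others by Dixon's test, 64 tests in all, of which 6 stood out. Chance flags about 1 in 20 such groups. In SOX2 KO, culture 12 lay far below the other cultures for Idi1 (-1.31 log2 units, others -0.24 to 0.53), Sc5d (-0.96, others -0.12 to 0.25), Scd1 (-1.17, others 0.09 to 0.56) and Fads1 (-1.42, others -0.30 to 0.32). Sc5d is a sterol desaturase of the last steps of cholesterol synthesis. The Dex array of this culture had the lowest upper quartile of all arrays, and its part in these values was not tested. Culture 7 lay below the others for Acaca (-0.69, others -0.09 to 0.28), the first committed enzyme of fatty acid synthesis. In WT, culture 4 lay below the others for Mfsd2a (-1.86, others 1.09 to 1.38), as it did for the 8 genes used to check its Dex labels.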

How the results depend on the processing

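The count of members past the threshold for Dex in SOX2 KO was 0 in the fit of the report and 1, Mfsd2a in each case, in 4 of 23 alternatives: without culture 4, without the replicate block and without culture 4, with only the SOX2 KO arrays, and without cultures 4 and 12, which was added after the data were seen. For Dex in WT the count was 1, again Mfsd2a, without culture 4 and without cultures 4 and 12. Leaving out 1 culture in turn gave counts of 0 to 1 for both. The count stayed 0 in every alternative run for the other 3 comparisons. For Mfsd2a the 23 alternatives gave 1.33 to 1.62 for Dex in SOX2 KO and 0.60 to 1.24 in WT. With no replicate block the Mfsd2a estimates were 1.53 (limma adjusted p = 0.166) and 0.73 (adjusted p = 1), and without culture 4 as well 1.53 (adjusted p = 0.0228) and 1.24 (adjusted p = 1); pairing by culture changed no other call among the members. A random replicate block for the genotype comparisons left both counts at 0. No member changed direction past the threshold in any alternative run. Over all genes the number past the threshold ran from 3 (without culture 13) to 66 (without cultures 4 and 12) for Dex in SOX2 KO, against 14 in the report, and from 0 to 58 for Dex in WT. For the genotypes it ran from 69 to 561 in Dex, against 110, and from 75 to 378 in vehicle, against 109, lowest without culture 1 and highest with array weights. Quantile normalization or median centring moved the median over all genes by at most 0.08 log2 units. The median over the members stayed between -0.09 and 0.14 when 1 culture was left out, and its sign is not settled for either genotype comparison. Depth of signal over background could not be judged without scanner values, and the 95% intervals of the genotype differences reached past 0.5 log2 units for all members but 6 in Dex and 8 in vehicle.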
